A study of Bos taurus with 3 samples.

Results

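The genes WNT4, WNT6, WNT10A, BMP2, BMP7, SOSTDC1, ID1, ID2, ID3 and SMAD7 belong to the WNT and BMP signalling pathways, and they were followed across cell states of the bovine rumen epithelium. They are 10 of the 19533 genes that the deposited tables name, and each had at least 1 UMI (unique molecular identifier, the tag that marks 1 captured transcript). The choice rested on their levels in cell states set by DLK2, IGFBP6, GJA1 and TOP2A, so these levels are given as a description with no test. Epithelium of the ventral rumen sac was taken from 3 adult lactating Holstein dairy cows kept under 1 condition. The tissue was treated with EDTA and briefly with trypsin, that supernatant was discarded, and a second digestion with collagenases, dispase, hyaluronidase and DNase gave the cells. Droplet libraries that read the 3′ ends of transcripts were made, 1 for each cow. The cow is therefore the replicate, n = 3 throughout, and no treatment, time or genotype was compared. The deposited matrix holds 3369 cells of cow 1, 7401 of cow 2 and 9958 of cow 3, after the authors removed cells that were not epithelial.

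WNT ligands are secreted lipid-modified proteins that bind Frizzled and LRP receptors on the cell that makes them or on its neighbours, and in the canonical branch they stabilise beta-catenin, which acts with TCF/LEF factors on target genes. BMP ligands bind type I and type II receptor kinases, which phosphorylate SMAD1, SMAD5 and SMAD8, and the genes ID1, ID2, ID3, SMAD6 and SMAD7 are common direct targets. In stratified epithelia such as skin, both pathways are known for their part in the balance between basal renewal and differentiation. SOSTDC1, also called ectodin or wise, is a secreted antagonist that can bind BMP ligands and LRP receptors and so touches both pathways.

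Cells were assigned to states by UMIs of the 4 state genes. TOP2A cells, with 2 or more UMIs of this topoisomerase of dividing cells, numbered 1665. GJA1 cells, with 2 or more UMIs of the gap junction gene GJA1 and under 2 of TOP2A, numbered 1182. Among all others, DLK2 cells (2297) had 2 or more UMIs of the Notch ligand homologue DLK2 and 0 of IGFBP6, IGFBP6 cells (2561) had 2 or more of this IGF-binding protein and 0 of DLK2, double-positive cells (2574) had at least 1 of each, and 10449 cells remained. The cows held very different shares of these states. IGFBP6 cells were 2.79% of the cells of cow 1, 5.84% of cow 2 and 20.4% of cow 3, whereas DLK2 cells were 15.7%, 20.4% and 2.61%. UMIs were summed over the cells of each cow and state, which gave 18 sums, and levels are UMIs of a gene per 10000 UMIs of the sum. A sum does not tell fewer expressing cells from fewer transcripts per cell.

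Of the marker lists that the states did not use, a cell-cycle list was highest in TOP2A cells and a spinous list in GJA1 cells. Among the other states, of the cycle, spinous and basal lists only the basal list overlapped throughout. The spinous sum of IGFBP6 cells (8.74 to 13.1 per 10000) lay above that of DLK2 cells (3.36 to 5.97). Their cycle sums were apart as well, at 0.571 to 1.53 in IGFBP6 cells and 0.144 to 0.517 in DLK2 cells. The summed level of 7 cell-cycle genes was 15.8 ± 4.78 per 10000 (mean ± SD, n = 3) in TOP2A cells and at most 1.53 in any cow elsewhere. A list of 7 spinous-layer genes reached 48.7 ± 26.1 in GJA1 cells, against 11.3 ± 2.28 in IGFBP6 cells, 10.8 ± 1.52 in TOP2A cells and 4.50 ± 1.34 in DLK2 cells. The authors had reported these genes as high in clusters of these same cells that express GJA1. The high sum in GJA1 cells was therefore set in advance and is no separate support for the state. Of the cycle list, MKI67, RRM2 and TROAP likewise came from the authors' mitotic clusters. The 7 genes of the basal list overlapped between states over the cows, but within each cow they were highest in IGFBP6 cells (155, 161 and 196) and lowest in DLK2 cells (106, 122 and 160). For other cell types, 6 of 7 fibroblast genes were named and summed to at most 0.0039 per 10000 in any sum, with PDGFRB at 0 UMIs. Endothelial genes (5 of 5 named) lay between 0.0153 and 0.0473, smooth muscle genes (5 of 5) between 0 and 0.0252, and melanocyte genes (2 of 4) between 0 and 0.0095. The immune list (8 of 8 named) lay between 0.137 and 0.532 with its highest mean in DLK2 cells. Most of its UMIs were of CD14, the pan-leukocyte gene PTPRC had 38 UMIs in all cells, and the B-cell gene MS4A1 had 0. Libraries of cows 1 to 3 held 38912809, 94856658 and 104189434 UMIs, and 5, 10 and 20 barcodes were shared between pairs of libraries, at most 0.297% of the smaller one. A sum of 18 immediate-early genes, which respond within minutes to stimulation or tissue dissociation, was 65.5 per 10000 in cow 1, 108 in cow 2 and 22.3 in cow 3.

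**Figure D1:**
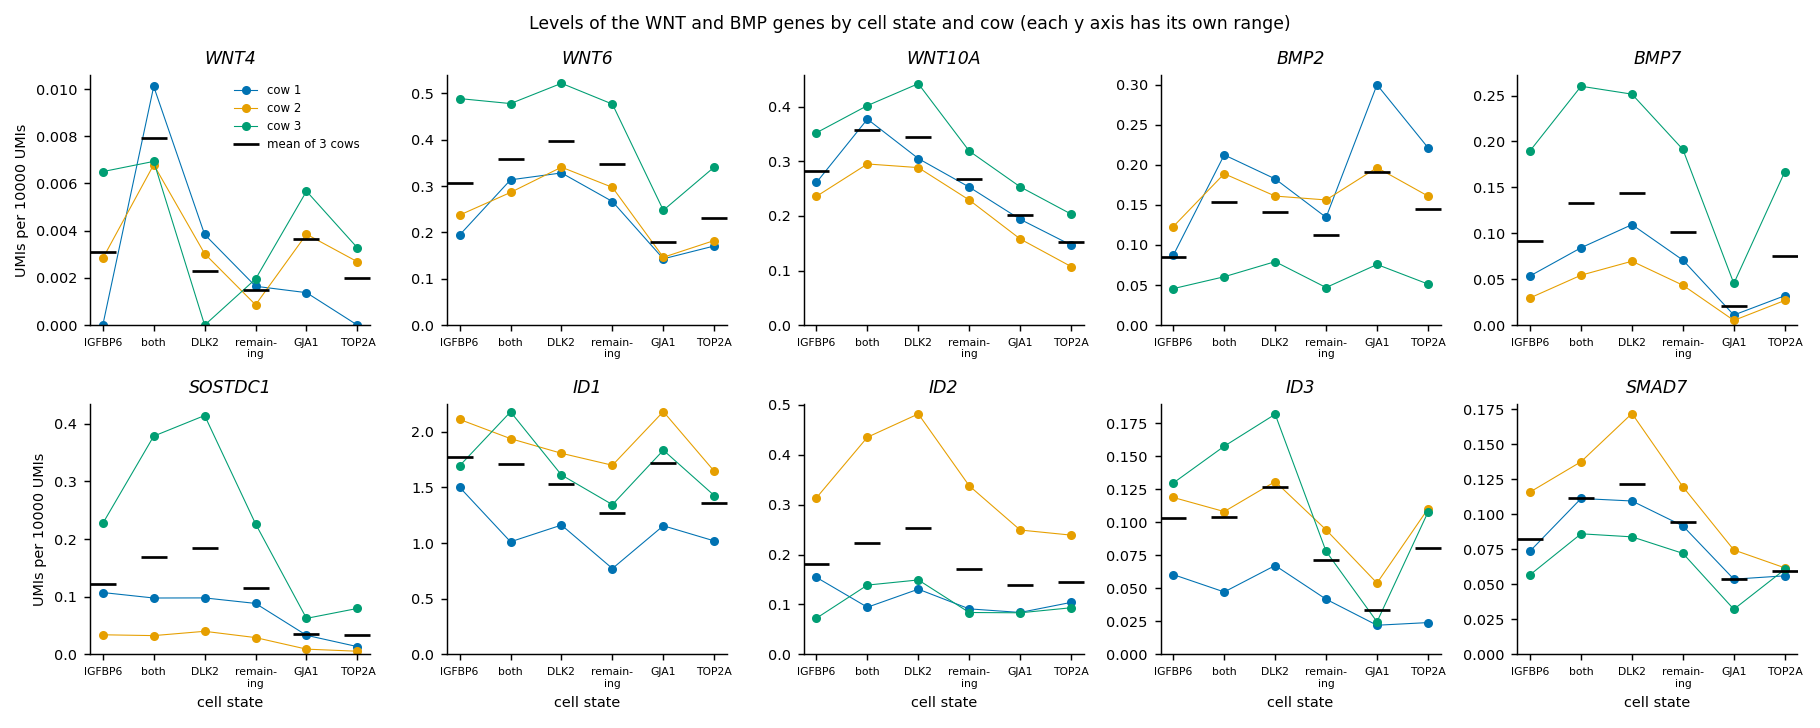
Level of each gene (vertical axis, UMIs per 10000 UMIs of the sum, from 0 and with its own range in each panel) in the 6 cell states (horizontal axis; "both" marks double-positive cells), with 1 coloured point per cow joined by a line and a black bar at the mean of 3 cows. WNT6, BMP7, ID2, ID3 and SMAD7 have their lowest mean in GJA1 cells, and BMP2 has its highest mean there (0.191).

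WNT6 was highest in DLK2 cells and lowest in GJA1 cells, in each of the 3 cows. In DLK2 cells the level was 0.328, 0.341 and 0.522 UMIs per 10000 in cows 1, 2 and 3, and in GJA1 cells 0.143, 0.146 and 0.248. Both ranges stayed apart, and the GJA1 level was 0.436, 0.430 and 0.475 of the DLK2 level. TOP2A cells came next from below with 0.171, 0.182 and 0.341, under IGFBP6 cells (0.194, 0.237 and 0.489) in every cow. Double-positive cells (0.359 ± 0.104) and the remaining cells (0.347 ± 0.114) lay between the DLK2 and IGFBP6 states, with neighbours in the order overlapping. Cow 3 was above both other cows in all 6 states.

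WNT10A, like WNT6 a ligand of the canonical branch and known from tooth, hair and other skin appendages, had the same high states and a different low one. Its level in TOP2A cells was 0.147, 0.107 and 0.203 in cows 1 to 3, which is 0.561, 0.455 and 0.577 of the level in IGFBP6 cells. The TOP2A and IGFBP6 ranges did not overlap. GJA1 cells came next with 0.194, 0.158 and 0.253, and each cow had more WNT10A in GJA1 than in TOP2A cells, whereas for WNT6 the order of these states was opposite in each cow. The highest means were those of double-positive cells (0.358 ± 0.0560) and DLK2 cells (0.345 ± 0.0844), which overlapped. WNT6 and WNT10A are neighbours on 1 chromosome in the RefSeq gene table of the ARS-UCD assembly, with 1 gene that has only a locus number between them.

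WNT4, which in many epithelia acts outside the canonical branch, was near the limit of detection. It had 75 UMIs in 74 of all cells, and 22 of them were in double-positive cells. The level there was 0.0101, 0.0068 and 0.0069 per 10000, and the values measured in the other states were at most 0.0065. No UMI was seen in IGFBP6 or TOP2A cells of cow 1 or in DLK2 cells of cow 3, where a count of 0 allows a level of up to 0.0201, 0.0080 and 0.0140 (3 UMIs of the sum, counting error only). These limits reach or pass levels of the double-positive cells, so a difference of IGFBP6, DLK2 or TOP2A cells from them, or among the other states, was not detectable at this depth. WNT4 did not pass the filter on low counts and has no fitted value.

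BMP7 showed the widest spread across states among the well-counted genes. In GJA1 cells it stood at 0.0110, 0.0051 and 0.0454 per 10000 in cows 1 to 3, from 36 UMIs in all, and in DLK2 cells at 0.109, 0.0696 and 0.251. The ranges did not overlap, and the GJA1 level was 0.101, 0.0738 and 0.180 of the DLK2 level. IGFBP6 cells (0.0536, 0.0297 and 0.190) and TOP2A cells (0.0320, 0.0268 and 0.167) lay between. DLK2 cells were above and GJA1 cells below both in each cow, while IGFBP6 and TOP2A cells hardly differed in cow 2, from 21 and 10 UMIs.

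BMP2, the other ligand, was ordered differently. Its level was 0.300, 0.196 and 0.0756 in GJA1 cells and 0.0871, 0.123 and 0.0455 in IGFBP6 cells, and the mean was highest in the first and lowest in the second. GJA1 cells held more BMP2 than IGFBP6 cells in every cow, by 3.44, 1.60 and 1.66 times. Against DLK2 cells (0.182, 0.161 and 0.0792) the GJA1 level was higher in cows 1 and 2 and slightly lower in cow 3, at 0.955 of it. Cow 3 had the lowest BMP2 and the highest BMP7. Over all cells, BMP2 was 0.184, 0.163 and 0.0513 per 10000 in cows 1, 2 and 3, while BMP7 was 0.0614, 0.0447 and 0.190.

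SOSTDC1, the secreted antagonist, was low in both GJA1 and TOP2A cells. In TOP2A cells its level was 0.0133, 0.0054 and 0.0797, from 5, 2 and 146 UMIs, and in GJA1 cells 0.0330, 0.0090 and 0.0624. These states overlapped, and GJA1 cells were the higher of the pair in 2 of 3 cows. IGFBP6 cells had 0.107, 0.0339 and 0.227, above both in every cow. DLK2 cells had 0.0979, 0.0399 and 0.414, with the cow 3 value over 10 times that of cow 2, so the mean of 0.184 ± 0.202 rests largely on 1 cow. Over all cells the level in the 3 cows was 0.0735, 0.0292 and 0.217, and cow 3 was highest for SOSTDC1 and BMP7 in each of the 6 states.

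ID1 encodes an inhibitor of basic helix-loop-helix factors and is a classical BMP target, and it had the most UMIs of the 10 genes (37499) and the flattest profile. State means lay between 1.27 ± 0.468 per 10000 in the remaining cells and 1.77 ± 0.312 in IGFBP6 cells. The IGFBP6 level was 1.50, 2.11 and 1.69 in cows 1 to 3 and the GJA1 level 1.16, 2.18 and 1.83, higher in GJA1 cells in 2 of 3 cows. The difference between these states lay within the spread of the cows.

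ID3, a paralogue with the same mode of action, did not share that profile. Its level in GJA1 cells was 0.0220, 0.0539 and 0.0246, below the whole range in DLK2 cells (0.0672, 0.131 and 0.182) and in IGFBP6 cells (0.0603, 0.119 and 0.130). In TOP2A cells the values were 0.0240, 0.110 and 0.107, with cow 1 near the GJA1 level and the other cows near that of IGFBP6 cells. ID2 was ordered first by cow: its level in cow 2 lay between 0.239 and 0.482 in the 6 states, while cows 1 and 3 lay between 0.0724 and 0.154. Within cows, ID2 was lower in GJA1 than in DLK2 cells, at 0.643, 0.517 and 0.558 of the DLK2 level.

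SMAD7, an intracellular inhibitor that BMP and TGF-beta signalling induce as feedback, was lower in GJA1 cells (0.0536, 0.0745 and 0.0321) than in DLK2 cells (0.109, 0.172 and 0.0838). These ranges did not overlap. Its ratio of DLK2 to IGFBP6 levels was nearly the same in the 3 cows, at 1.48, 1.48 and 1.48, but these rest on as few as 11 UMIs in IGFBP6 cells of cow 1 and 18 in DLK2 cells of cow 3. TOP2A cells had 0.0560, 0.0617 and 0.0606, the tightest group of any state for this gene.

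The states were also compared by a fit across all genes, with summed counts, the cow as a block, edgeR's quasi-likelihood test and Benjamini-Hochberg adjustment. Genes counted as called where the adjusted p was below 0.05 and the fold change on the log2 scale was over 0.25 in size, and the 4 state genes were left out. For the members the fit gives log2 fold changes with standard errors and no p, since they were chosen on these differences, and 9 of 10 passed the filter on low counts. The first 3 comparisons share the sums of IGFBP6 cells, so their values are not independent of each other. Fitted values are relative to TMM scaling, a scaling that assumes most genes are level. Without it the median log2 fold change of all genes moved from 0.02 to 0.12 in DLK2 against IGFBP6 cells, from -0.0027 to -0.11 in GJA1 against IGFBP6 cells, from -0.0082 to 0.12 in TOP2A against IGFBP6 cells and from -0.02 to -0.22 in GJA1 against DLK2 cells. The share of calls that were higher moved with it, in the same order, from 44.8% to 63.8%, from 53.8% to 36.4%, from 52.0% to 77.3% and from 50.6% to 31.6%. Levels per 10000 carry no such scaling and therefore lie on the second footing. The counts of members by sign and by range below rest on these levels, while the share of genes called comes from the scaled fit. The shares of all genes with such signs or ranges were not computed. The values set side by side are therefore unlike measures, and nothing is read from comparing them.

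**Figure D2:**
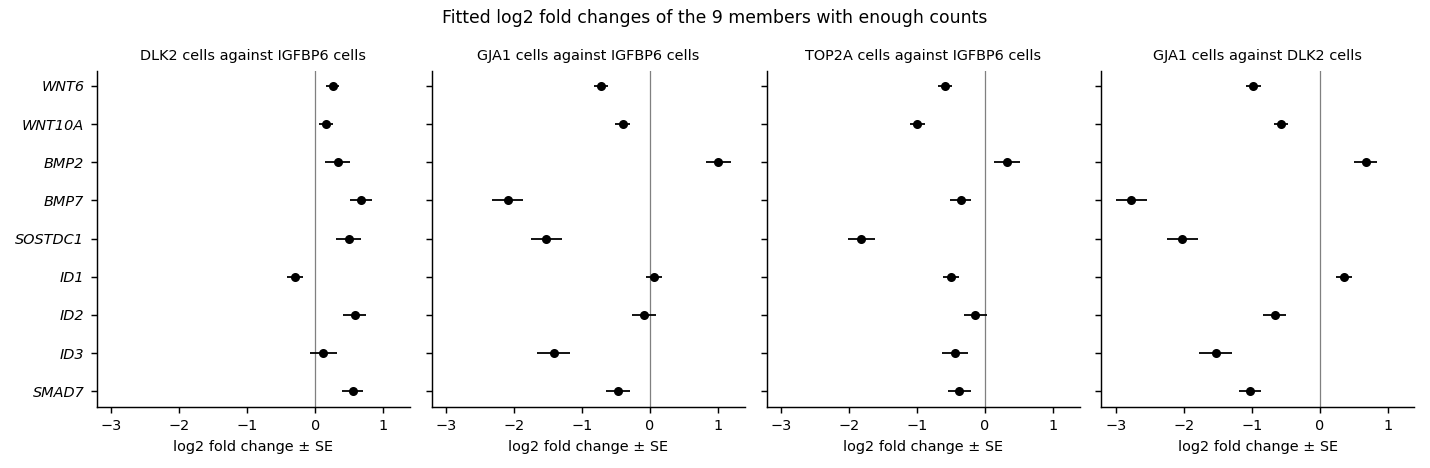
Fitted log2 fold change (horizontal axis, points) with its standard error (bars) for the 9 members with enough counts (vertical axis) in the 4 comparisons of states, from the fit with the cow as a block. BMP7 and SOSTDC1 lie farthest to the left in GJA1 cells (-2.77 and -2.02 against DLK2 cells), and BMP2 lies to the right of 0 in all 4 panels.

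In DLK2 against IGFBP6 cells, of the 9 with counts, 6 were higher in DLK2 cells in all 3 cows, 1 was lower in all (ID1) and 2 were mixed, and no gene had ranges that were apart, where 23.2% of all 10650 genes tested were called, 10.4% as higher and 12.8% as lower. The members were chosen with these levels known, so nothing is read from their count. The fitted log2 fold changes were 0.68 ± 0.16 (SE) for BMP7, 0.58 ± 0.16 for ID2, 0.55 ± 0.15 for SMAD7 and 0.49 ± 0.18 for SOSTDC1. WNT6 (0.26 ± 0.10), WNT10A (0.17 ± 0.10), BMP2 (0.33 ± 0.19) and ID3 (0.12 ± 0.20) were closer to 0, and ID1 was at -0.30 ± 0.12. Without cow 3 the SOSTDC1 value became -0.05, BMP7 1.05 and WNT6 0.46. Over all alternatives BMP7 ran from 0.31 to 1.05. WNT6 was at 0.10 with 1 UMI for a positive cell, BMP2 at 0.04 with states set after thinning and at 0.68 without the block, and ID2 at 0.17 after thinning.

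GJA1 against IGFBP6 cells gave larger differences. Here 6 of 9 members were lower in all 3 cows, 1 (BMP2) was higher in all and 2 were mixed, with the ranges apart for ID3 only, beside 28.5% of all genes called, 15.3% as higher and 13.2% as lower. Fitted values were -2.09 ± 0.23 for BMP7, -1.53 ± 0.23 for SOSTDC1, -1.42 ± 0.24 for ID3 and 1.00 ± 0.18 for BMP2. WNT6 had -0.72 ± 0.11, SMAD7 -0.47 ± 0.18 and WNT10A -0.40 ± 0.11. With states set after thinning, ID3 was at -2.56, WNT6 at -1.08, SMAD7 at -0.92 and ID2 at -0.70. ID1 (0.06 ± 0.12) and ID2 (-0.08 ± 0.18) lay within 1 standard error of 0, and each takes the other sign in some settings, ID1 at -0.03 without TMM scaling.

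In TOP2A against IGFBP6 cells, 6 of 9 members were lower in all 3 cows, BMP2 was higher in all, and WNT10A alone had ranges apart, beside 25.0% of all genes called, 13.0% as higher and 12.0% as lower. SOSTDC1 had the largest difference (-1.82 ± 0.20) and WNT10A the next (-1.0 ± 0.11). WNT6 had -0.58 ± 0.10, ID1 -0.50 ± 0.12, ID3 -0.44 ± 0.19, SMAD7 -0.38 ± 0.17 and BMP7 -0.36 ± 0.16. The SOSTDC1 value became -2.99 without cow 3, SMAD7 moved between -0.16 without cow 2 and -0.87 without cow 3, BMP7 became -0.57 without cow 3, and BMP2, at 0.33 ± 0.19, moved between 0.12 without cow 1 and 0.54 without cow 3 and turned to -0.23 with states set after thinning to 5000 UMIs. ID2, at -0.14 ± 0.17, became -0.46 without cow 3 and 0.09 without cow 2.

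In GJA1 against DLK2 cells, 7 of 9 members were lower in all 3 cows and the ranges were apart for 5 (WNT6, WNT10A, BMP7, ID3 and SMAD7), beside 49.1% of all genes called, 24.8% as higher and 24.2% as lower. BMP7 differed by -2.77 ± 0.23, SOSTDC1 by -2.02 ± 0.23, ID3 by -1.53 ± 0.25 and SMAD7 by -1.03 ± 0.17 on the log2 scale. WNT6 had -0.98 ± 0.11, ID2 -0.66 ± 0.17 and WNT10A -0.57 ± 0.11. In cells of low immediate-early share ID3 was at -0.37, SMAD7 at -0.60, ID2 at -0.05 and ID1 at 0.63. BMP2 (0.67 ± 0.16) and ID1 (0.36 ± 0.12) had positive values. Depth moved with these states: cells held a median of 13845 to 18646 UMIs in GJA1 cells of the 3 cows and 7628 to 9742 in DLK2 cells, and the median mitochondrial share was 14.6% to 23.8% against 9.30% to 10.6%. With states set after each cell was thinned to 5000 UMIs, BMP7 was at -2.87, SOSTDC1 at -2.15, WNT6 at -1.30 and ID3 at -2.44.

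The other genes of the pathways were taken from 8 lists by role, drawn up with earlier results of these data known. Of 125 listed genes, 100 were named in the tables, 96 had a UMI and 56 passed the filter. Of 16 further WNT ligands 10 were named with at least 1 UMI and 3 passed the filter, and of 12 further BMP ligands 3 were named, 2 had a UMI and 1 (BMP4) passed. Receptors were better represented, with 10 WNT receptors and co-receptors and 6 BMP receptors tested.

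**Figure D3:**
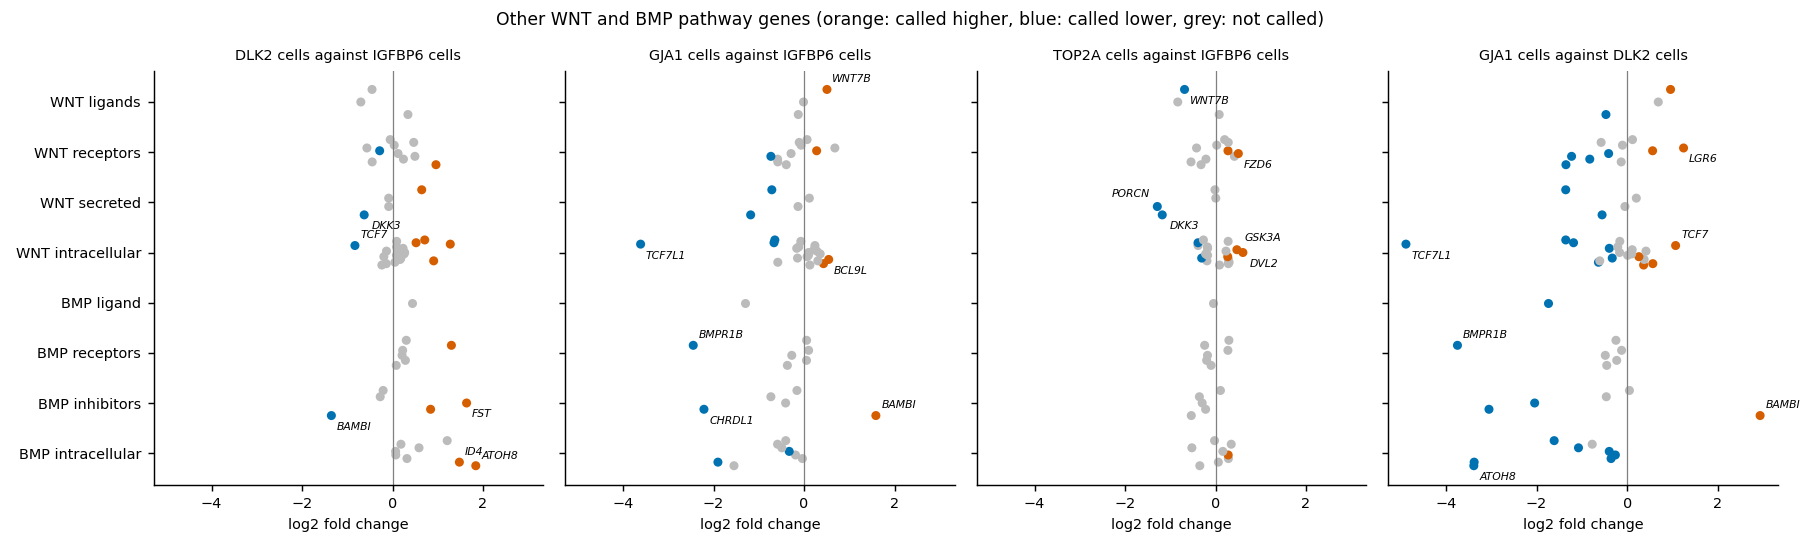
Fitted log2 fold change (horizontal axis) of the 56 other WNT and BMP pathway genes tested, by role (vertical axis), in the 4 comparisons of states, with 1 point per gene. Orange points were called higher, blue points lower and grey points neither, and GJA1 against DLK2 cells has 24 blue and 8 orange points, with BAMBI at 2.94 and BMPR1B at -3.75.

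GJA1 against DLK2 cells called 32 of the 56 pathway genes (57.1%, beside 49.1% of all genes), 24 lower and 8 higher in GJA1 cells (29 and 6 without TMM scaling). The median log2 fold change was -0.34 beside -0.02 over all genes. On the BMP side, 7 of 8 intracellular members, 1 of 6 receptors, 2 of 5 inhibitors and BMP4 were called lower, and 1 inhibitor higher. The calls of SMAD1, SMAD4, SMAD6, ZNF423 and BMP4 were lost without cow 2. Without cow 1 those of SMAD1, SMAD4 and SMAD5 were lost, and without cow 3 that of ZNF423. The calls of SMAD1 and SMAD4 were lost also with DESeq2 and with a fold threshold of 0.36. BMPR1B, a type I BMP receptor, stood at 0.109, 0.0526 and 0.102 per 10000 in DLK2 cells and at 0.0096, 0 and 0.0095 in GJA1 cells, where the 0 of cow 2 allows a level of up to 0.0039. The ranges were far apart, and BMPR1B fell by 3.75 ± 0.37 on the log2 scale (edgeR adjusted p = 1.22e-08). ATOH8, a BMP-responsive helix-loop-helix factor, fell by 3.39 ± 0.46 on the log2 scale (edgeR adjusted p = 1.58e-06), from 0.0653, 0.0418 and 0.0419 in DLK2 cells to 0.0069, 0 and 0.0057 in GJA1 cells, with the same limit for the 0. ID4, the fourth ID gene, followed with -3.38 ± 0.51 (edgeR adjusted p = 7.78e-06) and was named after its values were seen, as was SMAD6, the other inhibitory SMAD, with -1.08 ± 0.24 (edgeR adjusted p = 0.000742).

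BAMBI was the exception among these BMP genes. It encodes a pseudoreceptor that lacks a kinase domain and dampens BMP and TGF-beta signalling. Its level was 0.235, 0.272 and 0.170 in GJA1 cells against 0.0307, 0.0490 and 0.0233 in DLK2 cells and 0.0603, 0.138 and 0.0403 in IGFBP6 cells. GJA1 cells were above both other states without overlap, by a log2 fold change of 2.94 ± 0.22 against DLK2 cells (edgeR adjusted p = 1.69e-10) and 1.59 ± 0.19 against IGFBP6 cells (edgeR adjusted p = 1.9e-06).

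Within the WNT lists the calls in GJA1 against DLK2 cells went both ways. Among 19 intracellular members 6 were lower and 4 higher, among 10 receptors 4 were lower and 2 higher, among 4 secreted modulators 2 were lower, and of 3 ligands 1 was lower and 1 higher. TCF7L1, a TCF factor best known as a repressor in basal and stem cells, had 43 UMIs in DLK2 cells and 1 in GJA1 cells, a ratio of 0.0273 pooled over cows (95% exact interval 0.000676 to 0.160, counting error only), with an edgeR adjusted p of 1.6e-05. TCF7, another factor of the family, rose in GJA1 cells by 1.07 ± 0.22 (edgeR adjusted p = 0.000245), from 0.0442, 0.0230 and 0.0745 to 0.0564, 0.0629 and 0.117. LGR6, an R-spondin receptor, rose by 1.25 ± 0.29 (edgeR adjusted p = 0.00101), from 0.0173, 0.0424 and 0.0885 to 0.0798, 0.103 and 0.0908, with nearly the whole difference in cows 1 and 2. Pathway calls fell to 20 without cow 2, to 19 in cells of low immediate-early share and to 12 without the block on cow. These were 37.0%, 35.8% and 21.4% of the pathway genes then tested. Calls over all genes fell as well, to 3815 of 10472, 3633 of 10297 and 2233 of 10650 genes tested. BMPR1B, ATOH8, BAMBI, ID4 and CHRDL1, a secreted BMP antagonist, kept their calls under every alternative tried. So did WLS, FZD3, ZNRF3 and TCF7L2 of the WNT lists, named here for that reason. ZNRF3 was at -1.36 ± 0.16 (edgeR adjusted p = 3.23e-07) and TCF7L2 at -1.18 ± 0.12 (edgeR adjusted p = 3.23e-08). TCF7L1 lost its call with states set after thinning and in cells of low immediate-early share. SMAD6 lost its call without cow 2 and in cells of low immediate-early share, TCF7 in those cells and without the block, and LGR6 without the block.

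DLK2 against IGFBP6 cells called 15 of 56 pathway genes (26.8%, beside 23.2% of all genes), 11 higher and 4 lower in DLK2 cells (18 and 3 without TMM scaling), with a median of 0.18 beside 0.02 over all genes. ATOH8 rose by 1.84 ± 0.35 (edgeR adjusted p = 0.000429), from 0.0067, 0.0099 and 0.0126 per 10000 in IGFBP6 cells. FST, the secreted antagonist follistatin, rose by 1.64 ± 0.37 (edgeR adjusted p = 0.00231), from 0, 13 and 7 UMIs in IGFBP6 cells of cows 1 to 3 to 13, 90 and 1 in DLK2 cells, so it rests mostly on cow 2, and the 0 of cow 1 allows a level of up to 0.0201 per 10000. ID4 rose by 1.48 ± 0.39 (edgeR adjusted p = 0.00749), and its level in cow 3 was 0.0199 in IGFBP6 and 0.0186 in DLK2 cells. BAMBI (-1.35 ± 0.26, edgeR adjusted p = 0.000431), TCF7 (-0.83 ± 0.22, edgeR adjusted p = 0.0067) and the DKK family member DKK3 (-0.63 ± 0.18, edgeR adjusted p = 0.012) fell in DLK2 cells. Pathway calls fell to 8 without cow 1, to 4 without cow 2 and to 1 without the block on cow. Beside them, calls over all genes were 1697 of 11278, 1033 of 10472 and 234 of 10650 genes tested. The calls of FST, ID4, BAMBI, TCF7 and DKK3 were lost without cow 2, and that of ID4 without cow 1 as well.

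GJA1 against IGFBP6 cells also called 15 of 56 (26.8%, beside 28.5% of all genes), 5 higher and 10 lower (2 and 13 without TMM scaling), with a median of -0.14 beside -0.0027 over all genes. BMPR1B (-2.45 ± 0.42, edgeR adjusted p = 0.000115) and CHRDL1 (-2.21 ± 0.43, edgeR adjusted p = 0.000404) fell, CHRDL1 to 2, 1 and 5 UMIs in GJA1 cells. TCF7L1 had 14 UMIs in IGFBP6 cells against 1, a ratio of 0.111 (95% exact interval 0.00263 to 0.730) with an edgeR adjusted p of 0.00908. Beside BAMBI, the called genes that rose most were BCL9L, a co-activator of beta-catenin (0.54 ± 0.19, edgeR adjusted p = 0.0356), and the ligand WNT7B (0.51 ± 0.15, edgeR adjusted p = 0.0144). WNT7B stood at 0.184, 0.137 and 0.117 in GJA1 cells and 0.208, 0.0947 and 0.0759 in IGFBP6 cells, so cow 1 went the other way. Pathway calls were 9 without cow 1 and 7 without cow 3, beside 2592 of 11278 and 1520 of 10486 over all genes tested. Without the block on cow edgeR called 0 of 56, with 8 at an unadjusted p under 0.05, and DESeq2 with the block called 13. TCF7L1 lost its call without cow 1 or 2, CHRDL1 without cow 3, and BCL9L and WNT7B without cow 2 or 3. BCL9L lost its call under 9 alternatives in all, DESeq2 and the fit without TMM scaling among them.

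TOP2A against IGFBP6 cells called 11 of 56 (19.6%, beside 25.0% of all genes), 6 higher and 5 lower, with a median of -0.08 beside -0.0082. The balance depended on the fit, with 13 higher and 3 lower without TMM scaling and 2 higher and 5 lower with DESeq2. PORCN, the acyltransferase that adds the lipid to WNT proteins, fell by 1.29 ± 0.32 on the log2 scale (edgeR adjusted p = 0.00392), from 0.0268, 0.0325 and 0.0295 to 0.0213, 0.0054 and 0.0147. DKK3 (-1.18 ± 0.18, edgeR adjusted p = 2.87e-05) and WNT7B (-0.69 ± 0.17, edgeR adjusted p = 0.00329) fell as well. The other tested genes of these roles did not all move: the ligand WNT3A was at 0.08 ± 0.13 (edgeR adjusted p = 0.724) and WLS, which carries WNT proteins to the cell surface, at -0.01 ± 0.15 (edgeR adjusted p = 0.967), both chosen after their values were seen. Higher calls were small: DVL2, a Dishevelled protein (0.60 ± 0.21, edgeR adjusted p = 0.0346), the receptor FZD6 (0.50 ± 0.14, edgeR adjusted p = 0.00806) and the kinase GSK3A (0.47 ± 0.10, edgeR adjusted p = 0.000628). Pathway calls were 5 without cow 1 and 3 without cow 2, DESeq2 called 7, and without the block edgeR called 0 of 56 with 7 at an unadjusted p under 0.05. In the same order, calls over all genes tested were 2201 of 11278, 1618 of 10472, 2316 of 10650 and 521 of 10650. The call of DVL2 was lost without any of the cows, FZD6 without cow 1 or 2, and PORCN without cow 2.

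The immediate-early sum moved with the states, and its part in the results was not tested. Its level was 114, 136 and 36.0 per 10000 in DLK2 cells of cows 1 to 3, 32.8, 86.0 and 18.1 in IGFBP6 cells, 34.8, 58.9 and 16.6 in GJA1 cells and 28.0, 62.5 and 14.1 in TOP2A cells. DLK2 cells were thus highest in each cow. The levels of the genes moved with it too. When the cells of each cow were split by this share into 4 bins of equal size, ID2 rose from 0.0381, 0.123 and 0.0377 in the lowest bin to 0.206, 0.648 and 0.243 in the highest, by 5.42, 5.29 and 6.44 times. ID3 was higher by 8.63, 5.27 and 2.76 times, and both genes increased at each step between bins in 3 of 3 cows. SMAD7 increased by 2.59, 2.65 and 1.94 times, SOSTDC1 by 2.26, 3.97 and 2.16 times and ID1 by 1.11, 1.61 and 1.61 times. Among the ligands, BMP7 increased by 3.50, 3.36 and 1.23 times, and between the means of the outer bins BMP2 increased by 1.54 times, WNT6 by 1.24 and WNT10A by 1.21, beside 1.48 for ID1. Over all cells, ligands and targets thus did not form separate groups in this respect. With the same bins, the ratio of means within DLK2 cells alone was 2.07 for ID1, 2.55 for SMAD7, 7.03 for ID2 and 7.23 for ID3. By this ratio the ligands lay below, at 0.966 for WNT6, 0.980 for WNT10A, 1.17 for BMP7 and 1.92 for BMP2. However, ID2 and SMAD7 had no UMI in the lowest bin of cow 3, so that cow gave no ratio for them. In cows 1 and 2 the ratios were 11.8 and 4.25 for ID2, 1.62 and 2.01 for SMAD7, and 3.68 and 1.75 for BMP2. BMP2 thus rose more than SMAD7 in cow 1. Within IGFBP6 cells the ratio of means was 0.701 for SMAD7 and 1.37 for BMP2, both from few counts in cow 1. There BMP2 had 4.04, 0.737 and 0.684 in cows 1 to 3, with 13 UMIs over all bins of cow 1. In cows 2 and 3 SMAD7 was above BMP2, at 0.954 and 1.43.

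**Figure D4:**
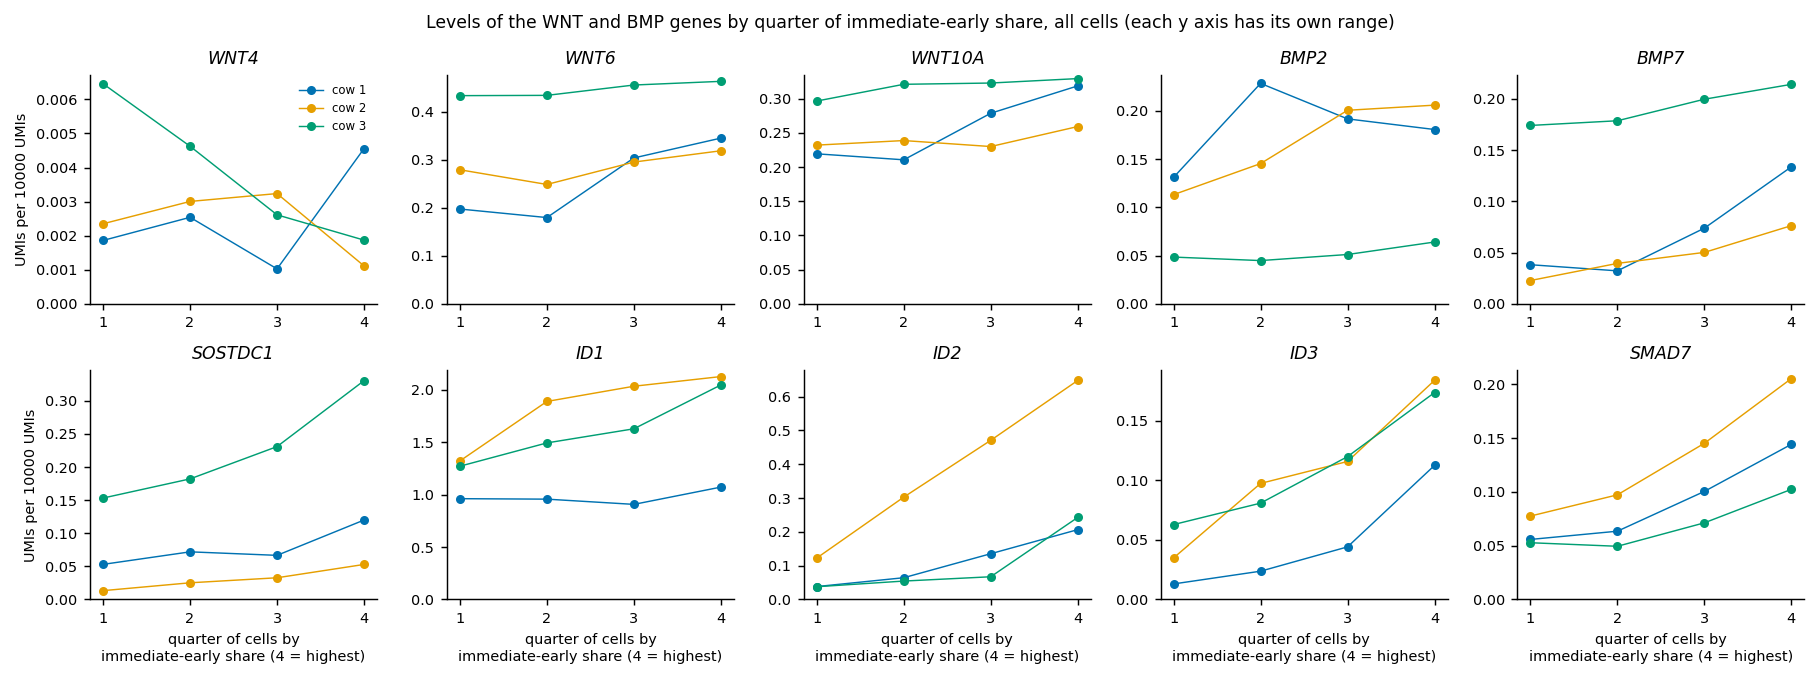
Level of each gene (vertical axis, UMIs per 10000 UMIs, from 0 and with its own range in each panel) in 4 equal bins of the cells of each cow by immediate-early share (horizontal axis, 4 the highest), with 1 line per cow and all states together. ID2 and ID3 climb at each step in 3 of 3 cows, ID2 by 5.29 to 6.44 times from bin 1 to bin 4.

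The bins were cut over all cells of a cow, so they were unequal in size within a state. Of the DLK2 cells of cows 1 to 3, 127 of 529, 558 of 1508 and 83 of 260 lay at or below the cow's median share. Of the IGFBP6 cells, 71 of 94, 297 of 432 and 1128 of 2035 did. In DLK2 cells alone, ID2 had a mean of 0.0609 ± 0.0888 in the lowest bin and 0.429 ± 0.236 in the highest, ID3 0.0287 ± 0.0098 and 0.208 ± 0.0962, and ID1 0.893 ± 0.277 and 1.85 ± 0.506, while WNT6 had 0.397 ± 0.109 and 0.383 ± 0.120. BMP2 had 0.0852 ± 0.0219 and 0.163 ± 0.0612 and SMAD7 0.0652 ± 0.0593 and 0.166 ± 0.0580, whereas BMP7, with ratios of 0.781, 2.35 and 1.23 between the outer bins of cows 1 to 3, and SOSTDC1, with 0.541, 2.79 and 2.13, were lower in the highest bin in cow 1. Within IGFBP6 cells ID2 had 0.0659 ± 0.0225 and 0.272 ± 0.156 and ID1 1.49 ± 0.107 and 2.40 ± 0.133. BMP7, ID3 and SMAD7 had too few counts there for a direction in each cow, with 8, 9 and 11 UMIs over all bins of cow 1. In cows 2 and 3 the ratios between the outer bins were 1.80 and 1.31 for BMP7 and 1.54 and 2.47 for ID3. SMAD7 had 0.954 and 1.43, so it did not rise in both. When only cells at or below the median immediate-early share of their cow were kept, BMP7 in GJA1 against DLK2 cells stayed at -3.05, SOSTDC1 at -1.82 and WNT6 at -0.91. ID3, ID2 and SMAD7 moved toward 0, as given with that comparison. In DLK2 against IGFBP6 cells ID3 was then at -0.85, SMAD7 at 0.10 and ID2 at 0.19, and of the 6 pathway genes named for that comparison only BAMBI kept its call.

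A split of the GJA1 cells by IGFBP5 and of the TOP2A cells by GJA1 crossed the states. Of the 1182 GJA1 cells, 987 also had a UMI of IGFBP5 and 195 had none. WNT10A was 0.200, 0.177 and 0.297 in GJA1 cells with IGFBP5 and 0.128, 0.0299 and 0.0618 in those without, lower in each cow without it, though from 17 UMIs over the 3 cows. WNT6 was 0.195 ± 0.0761 with and 0.0956 ± 0.0473 without (23 UMIs), at about equal levels in cow 1. Among TOP2A cells, 120 had 2 or more UMIs of GJA1 and 1466 had none. BMP7 was at 0, 0.0141 and 0.0442 in the first and 0.0486, 0.0247 and 0.175 in the second, and WNT10A at 0.0212, 0.0564 and 0.162 against 0.194, 0.117 and 0.206. Both genes were lower in TOP2A cells with GJA1 in each cow, for WNT10A in cow 3 by little, and the values rest on 4 and 17 UMIs.

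The genes most like each member were taken over the 18 sums, after the log2 level of each cow was centred, by Pearson's r among 10649 other tested genes. The sums share 3 cows, so r is a description. BMP7 was closest to IGFBP7 (r = 0.99), P3H2 (0.98) and BCAM (0.98), the last a laminin receptor. SOSTDC1 was closest to the translation factor EEF1A1 (0.97) and the ribosomal protein genes RPS25 (0.97) and RPL23 (0.97). WNT6 was nearest to VWA1, CBS and an unnamed gene (0.97 each), and WNT10A to NACA (0.96), NPAS2 (0.95) and ASAH1 (0.95). For BMP2 the highest values were those of APBA1 (0.88), EHD1 (0.88) and SLC28A3 (0.86), and for ID1 those of SERBP1 (0.87), NUDT17 (0.85) and RAC3 (0.83). ID2 had DIS3L (0.88), SLC4A7 (0.85) and an unnamed gene (0.82), ID3 had EXOSC10 (0.95), EPB41L4A (0.93) and SNX6 (0.92), and SMAD7 had NEK6 (0.97), NRG2 (0.96) and CHST14 (0.96). Among the members, SMAD7 went most closely with WNT6 (0.91), SOSTDC1 (0.89) and WNT10A (0.84), while BMP2 had negative values with BMP7 (-0.49) and ID3 (-0.51) and ID1 was near 0 with ID3 (-0.06).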

How the data were processed

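The authors made the UMI counts with Cell Ranger 3.1.0 on a bovine assembly with its Ensembl annotation, filtered cells by genes, UMIs and mitochondrial share, looked for doublets with DoubletFinder, removed other cell types and deposited whole counts per gene and cell. They also deposited values in natural log units (1 plus the count scaled to 10000 UMIs per cell), whose row names gave the genes, since the longer gene list is not in matrix order. All 20251256 values checked matched the counts within 1e-06. Barcode suffixes gave the cow. Depth per cow was 38912809 to 104189434 UMIs, and 3 cows limit the precision. No doublet caller was run again, free RNA was not estimated, and leaving out the 5% deepest cells of each cow was an alternative.

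Members, lists and tests were chosen with earlier results of these data known. Counts summed per cow and state were fitted with edgeR 4.0.16 in R 4.3.3 (TMM, filterByExpr, quasi-likelihood test, cow as a block), and DESeq2 1.42.0 was an alternative. The block rests on pairing by construction, since the 6 sums of a cow come from 1 animal and library. After state means were taken out, sums of a cow correlated by 0.579, 0.633 and 0.645 on average (lowest 0.426) and sums of different cows by -0.340. Taking out means over the cows makes this last value negative in itself, so it tells nothing about the pairing. Named beside the members were, per comparison, up to 3 pathway genes called with the largest log2 fold change in each direction, and the 3 genes nearest to each member. P-values measure the spread between these sums only. The alternatives included each cow left out, 1 or 3 UMIs for a positive cell, states set after thinning to 5000 UMIs, and other scalings and filters.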

Additional observations from a re-analysis of the deposited data

How the results depend on the processing

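Among the members' log2 fold changes above 0.25 in size, the sign turned for SOSTDC1 in DLK2 against IGFBP6 cells, which ran from -0.054 to 0.65 without 1 cow (lowest without replicate 3), and for BMP2 in TOP2A against IGFBP6 cells, at -0.23 with states set after thinning. The cause of these and of the changes below was not tested.

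In DLK2 against IGFBP6 cells, 2473 genes and 15 pathway genes were called. Thinning gave 1568 and 7, and cells of low immediate-early share gave 1272 and 4. Leaving out 1 cow gave 1033 to 2130 genes and 4 to 13 pathway genes. In GJA1 against IGFBP6 cells the counts of 3035 and 15 became 1520 to 2592 and 7 to 10 without 1 cow. In TOP2A against IGFBP6 cells the counts of 2658 and 11 became 1618 to 2201 and 3 to 9 without 1 cow. The pathway count there was 5 in cells of low immediate-early share and 7 each with DESeq2, with a fold threshold of 0.36 and without the sum of IGFBP6 cells of cow 1. Over all genes these settings called 2296, 2316, 2221 and 2465. In GJA1 against DLK2 cells the counts of 5227 and 32 became 3815 to 4838 and 20 to 28 without 1 cow. They were 3633 and 19 in cells of low immediate-early share. The sum left out and the fit without TMM scaling were chosen after seeing the data.

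Without the replicate block on cow, the calls in the 4 comparisons, in the order above, were 234, 402, 521 and 2233 genes, of which 1, 0, 0 and 12 were pathway genes. The 0 counts are those of edgeR's quasi-likelihood test, with 8 and 7 pathway genes at an unadjusted p under 0.05, and DESeq2 with the block called 13 and 7. The share of higher calls in TOP2A against IGFBP6 cells was 82.1% without the block and 52.0% with it, and in DLK2 against IGFBP6 cells 32.1% and 44.8%. Of the members' fold changes under alternatives, 472 moved by less than the spread between cows and 66 by more. Depth limits WNT4, TCF7L1 and FST, with 75 UMIs in all, 1 in GJA1 cells and 0 in IGFBP6 cells of cow 1, and BMPR1B and ATOH8, each with 0 in GJA1 cells of cow 2.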
